A study of Mus musculus with 4 samples.

Results

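Genomic imprinting makes a gene run from the copy inherited from only one parent, through DNA methylation that is laid down in the egg or the sperm lineage. In mice the germ line erases these marks in the embryo, and male germ cells write the paternal set again while they rest as prospermatogonia in the fetal testis. This process makes imprinted genes a natural set to follow when methyl-group supply is altered, since serine feeds the one-carbon pool behind DNA methylation. A list of 36 imprinted mouse genes was followed here by symbol. Of these, 29 have values in the deposited table of 36088 genes, all of them protein-coding. The other 7 (H19, Airn, Meg3, Rian, Mirg, Kcnq1ot1 and Peg13), all non-coding RNAs, are not analysed here. The table holds no reads per parental copy, so the parent of origin named below is background knowledge and imprinting itself was not measured.

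RNA came from wild-type (WT) male germ cells that were sorted out of fetal testes after culture, with 2 libraries from cultures with CBR-5884 and 2 from cultures with DMSO, the solvent control. CBR-5884 is described by the submitters as an inhibitor of serine metabolism and is known to block Phgdh, which starts the making of serine from glucose. The sample titles give day 14. The sources used here do not give the fetal stage, the dose or the sorting marker, and the design text calls the 2 libraries per condition biological replicates without saying how testes were pooled. Libraries carry the numbers 2 and 4 in the table, and pairs of values below are given in that order. Levels are TPM, a length-corrected relative abundance of each gene's transcripts in a library.

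The sorted cells carried germ cell RNA at high level and a smaller amount of somatic RNA. Dazl, the germ cell RNA-binding protein, had 906 and 897 TPM with CBR-5884, against 892 and 897 TPM with DMSO. The 7 Sertoli cell markers summed to 119 and 100 TPM with CBR-5884, against 140 and 76.2 TPM with DMSO, with 0 of 7 listed at 0. The 7 peritubular and stromal markers summed to 53.7 and 49.7 TPM with CBR-5884, against 57.1 and 47.6 TPM with DMSO. The most abundant of these was Col1a1, a collagen, with 24.3 and 29.1 TPM with CBR-5884, against 21.2 and 24.1 TPM with DMSO. Both CBR-5884 libraries were thus above both DMSO libraries for Col1a1, by little in the case of library 2. Steroid cell, endothelial, macrophage and red blood cell lists each summed to at most 29.4 TPM in any library, and the most abundant gene of each was low. Star, which carries cholesterol into mitochondria, had 2.35 and 3.23 TPM with CBR-5884, against 3.58 and 3.02 TPM with DMSO. Pecam1, an endothelial adhesion protein, had 6.11 and 5.09 TPM with CBR-5884, against 5.28 and 5.43 TPM with DMSO. Alas2, the heme synthesis enzyme of red cells, had 1.57 and 0.343 TPM with CBR-5884, against 1.42 and 1.45 TPM with DMSO. C1qa, a complement gene of macrophages, had 5.29 and 11.0 TPM with CBR-5884, against 8.17 and 6.90 TPM with DMSO. The groups overlapped for each of these 4 genes. Estimated depth was 28200000 and 25300000 reads with CBR-5884, against 24600000 and 22400000 reads with DMSO. In such bulk libraries fewer cells of a type and less RNA per cell cannot be told apart.

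The 29 genes lie in 18 imprinted domains on 9 chromosomes, 12 of them on chromosome 7. Several are built as pairs. The 5′ ends of Peg3 and Usp29, both expressed from the paternal copy, lie 147 bases apart on opposite strands of chromosome 7. Those of Sgce and Peg10 lie 99 bases apart on chromosome 6. Nnat lies inside Blcap and Mcts2 inside H13, both on chromosome 2, Zrsr1 inside Commd1 on chromosome 11, and Nap1l5 inside Herc3 on chromosome 6. Promoter windows from RefSeq (GRCm38.p6, 250 bases before to 50 after the start) were found for 24 of the 29 genes, with 38 windows in all. The hexamer TGCCGC, to which the imprint-protecting zinc finger protein ZFP57 binds when it is methylated, occurred on either strand (read as TGCCGC or GCGGCA) in 12 of the 38 windows (31.6%), against 18.9% of 13593 windows of genes tested and 11.6% of all 32851 windows. It occurred at least 2 times in 10.53% of the members' windows and in 2.77% of windows of genes tested. Windows of 1 gene can overlap, and the Mest windows that start at 30737800 and 30737803 hold the same 2 matches. The Mest window that starts at 30733256 holds 0. Counted by gene, 11 of 24 (45.8%) had a match in any window and 3 (Mest, Zdbf2 and Nap1l5) had at least 2 in 1 window, against 22.2% and 3.37% of genes tested, with no correction for the number of windows per gene. A match is a description of the letters only, and binding and methylation were not measured. The median number of CpG pairs per window was 17 for the members and 20 for genes tested.

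The windows of Peg3 (chr7:6730370-6730669, minus strand) and Usp29 (chr7:6730333-6730632, plus strand) are shown because they overlap over 263 bases, so nearly the same letters are read in opposite directions for genes of different level. Those of Mest (chr6:30737800-30738099, plus strand), the upstream window of Zdbf2 (chr1:63200108-63200407, plus strand) and Nap1l5 (chr6:58907077-58907376, minus strand) are shown as windows with 2, 3 and 2 matches. The Mest window that starts 3 bases further on and the upstream Mest window without a match are not shown. Matches are in capitals and other bases in lower case.
Peg3: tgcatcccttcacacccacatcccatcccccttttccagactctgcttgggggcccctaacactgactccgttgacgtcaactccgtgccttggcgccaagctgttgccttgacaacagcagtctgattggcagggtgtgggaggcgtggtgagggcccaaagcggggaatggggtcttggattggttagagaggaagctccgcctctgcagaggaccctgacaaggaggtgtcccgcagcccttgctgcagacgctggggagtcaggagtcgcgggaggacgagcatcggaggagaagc
Usp29: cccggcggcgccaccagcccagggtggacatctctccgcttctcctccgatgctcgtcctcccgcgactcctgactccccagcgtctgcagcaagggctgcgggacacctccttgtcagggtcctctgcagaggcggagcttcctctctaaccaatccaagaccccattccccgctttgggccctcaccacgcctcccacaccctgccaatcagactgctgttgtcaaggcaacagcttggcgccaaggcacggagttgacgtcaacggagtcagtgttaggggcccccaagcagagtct
Mest: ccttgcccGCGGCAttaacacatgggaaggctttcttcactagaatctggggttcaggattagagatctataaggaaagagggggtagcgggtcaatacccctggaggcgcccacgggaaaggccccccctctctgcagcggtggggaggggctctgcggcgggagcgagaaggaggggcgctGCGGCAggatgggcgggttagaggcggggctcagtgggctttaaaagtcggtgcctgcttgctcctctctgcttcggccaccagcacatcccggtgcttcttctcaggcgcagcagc
Zdbf2: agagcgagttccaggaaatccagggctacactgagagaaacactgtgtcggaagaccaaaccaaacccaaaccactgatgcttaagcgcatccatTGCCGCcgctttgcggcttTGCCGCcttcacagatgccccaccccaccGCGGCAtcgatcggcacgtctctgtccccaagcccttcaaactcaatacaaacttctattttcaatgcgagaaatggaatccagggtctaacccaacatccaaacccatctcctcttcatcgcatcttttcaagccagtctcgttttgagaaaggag
Nap1l5: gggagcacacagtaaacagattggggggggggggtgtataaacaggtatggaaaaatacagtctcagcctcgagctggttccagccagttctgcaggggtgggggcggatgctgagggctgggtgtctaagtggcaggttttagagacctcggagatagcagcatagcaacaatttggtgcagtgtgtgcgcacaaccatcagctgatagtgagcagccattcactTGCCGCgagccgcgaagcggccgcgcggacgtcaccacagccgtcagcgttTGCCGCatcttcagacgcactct

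Imprinted genes in these germ cells spanned 4 orders of level, and most were neither silent nor abundant. The highest was Commd1 with a mean of 169 TPM over the 4 libraries, followed by Gnas, Cdkn1c, Inpp5f, Blcap, Mcts2 and Igf2r. The lowest was Rtl1, at 0.0169 TPM. A mean of at least 1 TPM, the filter for testing, was reached by 26 of the 29, and of at least 10 TPM by 19. The median of the 26 was 19.7 TPM, against 21.4 TPM over all 14920 genes tested, so as a group they sat near the middle of the expressed genes. The 3 genes under the filter were Rtl1, Magel2 and Slc22a18. The scatter of the libraries within a condition was as large as many steps in this order, and neighbours such as Peg10, Nnat, Mest, Igf2, Peg3 and Zdbf2 all held values between 14 and 29 TPM.

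**Figure D1:**
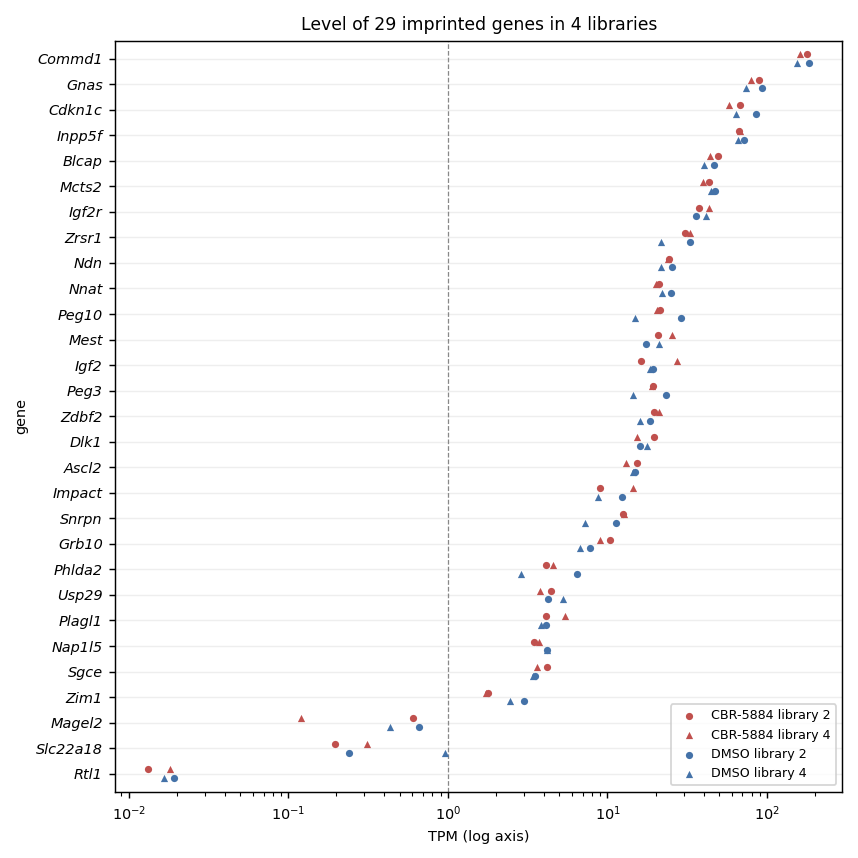
Level of each of the 29 imprinted genes (rows, ordered by the mean) in TPM on a log axis. Red points are the CBR-5884 libraries, set above the blue points of the DMSO libraries; circles are library 2 and triangles library 4, and the dashed line marks the filter of 1 TPM. Rtl1 lies near 0.0169 TPM and Commd1 near 169 TPM, and for most genes the red and blue points interleave.

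The comparison asked whether blocking serine metabolism moved these genes. With CBR-5884 no imprinted gene passed the threshold. Of the 26 tested, 0 rose and 0 fell at an adjusted p under 0.05 (limma on log2(TPM + 1), Benjamini-Hochberg over all genes tested), where 0% of all genes tested were called. At an unadjusted p under 0.05 there were 0 of 26, where 3.66% of all genes passed, 1.51% higher and 2.15% lower. The groups did not overlap for 8 of 26 (30.8%), 4 higher and 4 lower with CBR-5884, and 31.3% of all genes tested had groups that did not overlap (13.6% higher and 17.7% lower), so the share among imprinted genes was near the background. The log2 fold changes ran from −0.42 for Zim1 to 0.44 for Snrpn, with a median of 0.04 beside −0.01 over all genes tested. Without DMSO library 4 the median of the imprinted genes was −0.07. The smallest unadjusted p was 0.0928, for Grb10, and adjusted p-values were 0.998 or 0.999. These tests leave room for moderate differences. The 95% intervals had a median half-width of 0.43 on the log2 scale, or 1.34-fold, from 1.16-fold for the narrowest to 1.80-fold for the widest. With 2 libraries per condition an exact two-sided permutation test cannot go below 0.33, so it was not used.

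**Figure D2:**
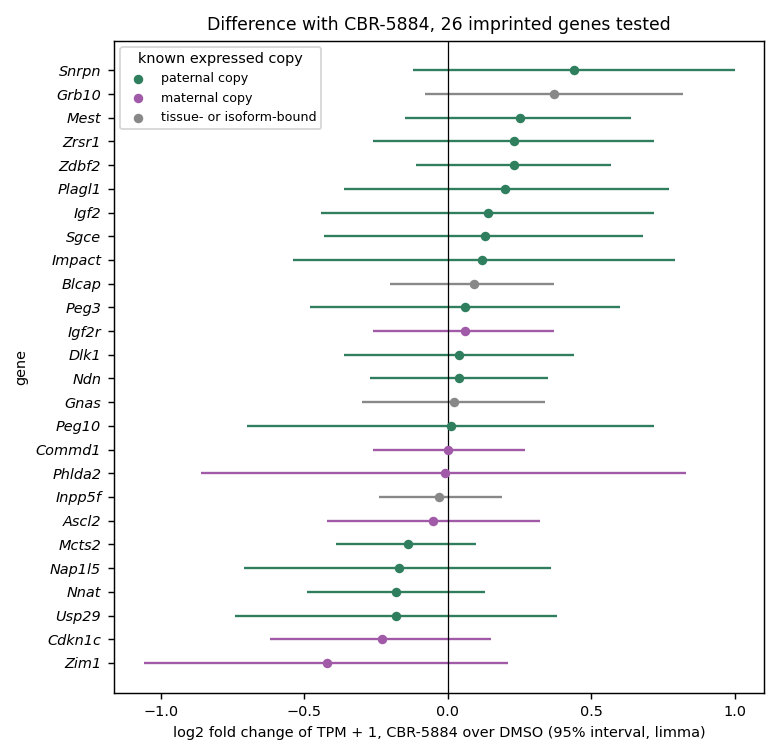
Log2 fold change of TPM + 1 for CBR-5884 over DMSO (points) with its 95% interval from limma (lines) for the 26 imprinted genes tested. Colours give the parental copy each is known to be expressed from, which is background knowledge and was not measured in these cells. The points run from −0.42 for Zim1 to 0.44 for Snrpn and all 26 intervals span 0.

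The genes were split by the expressed copy named as background knowledge. The germ line erases imprint marks in the embryo, and the copy used in these cells was not measured. Of the 16 paternally expressed genes tested, 12 had a positive log2 fold change, with a median of 0.09. Of the 6 maternally expressed genes 2 were positive, with a median of −0.03. The remaining 4 (Grb10, Blcap, Gnas and Inpp5f), whose imprint depends on tissue or isoform, had a median of 0.06. Over all genes tested 47.2% were positive. Without DMSO library 4 the median was −0.05 for the paternal and −0.28 for the maternal set, so the sign of the paternal set rests on that library.

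The growth pathway of insulin-like growth factor 2 is the classic ground of imprinting, with a growth factor from the father's copy and its restraints from the mother's. Igf2, the growth factor (chromosome 7, 142650766 to 142666816), had 16.2 and 27.2 TPM with CBR-5884, against 19.4 and 18.5 TPM with DMSO. CBR-5884 library 4 alone was high, and the values of the groups overlapped (log2 fold change 0.14, SE 0.24, limma adjusted p = 0.998). Without CBR-5884 library 4 the log2 fold change was −0.22, and without CBR-5884 library 2 it was 0.50. Its level is uncertain because 61.91% of its 31-base words also occur in the overlapping gene Gm49394, which itself had at most 1.07 TPM in any library. Igf2r, the receptor that removes IGF2 and is maternally expressed (chromosome 17, 12682406 to 12769664), had 37.3 and 43.4 TPM with CBR-5884, against 35.9 and 41.7 TPM with DMSO. Library 4 was the higher one in both conditions, and the log2 fold change of 0.06 had an interval from −0.26 to 0.37. Leaving out either CBR-5884 library 4 or DMSO library 2 turned it to −0.05.

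Grb10 encodes an adaptor that damps insulin and IGF receptor signalling, and is expressed from the maternal copy in most tissues and the paternal copy in neurons. It lies on chromosome 11 from 11930508 to 12038683. Its values were 10.3 and 8.94 TPM with CBR-5884, against 7.72 and 6.71 TPM with DMSO. Both CBR-5884 libraries lay above both DMSO libraries (log2 fold change 0.37, SE 0.19, limma adjusted p = 0.998), and leaving out 1 library at a time gave 0.28 to 0.46. Plagl1, a paternally expressed zinc finger factor known to switch on other imprinted genes, averaged 4.76 ± 0.93 TPM with CBR-5884 and 3.97 ± 0.19 TPM with DMSO (SD, n = 2 each). Dlk1, a paternally expressed membrane protein related to Notch ligands (chromosome 12, 109452823 to 109463336), had 19.6 and 15.4 TPM with CBR-5884, against 16.1 and 17.7 TPM with DMSO. The 2 groups of Dlk1 values interleaved, with a log2 fold change of 0.04, which turned to −0.13 when CBR-5884 library 2 was left out and to −0.02 when DMSO library 2 was. Rtl1, the retrotransposon-derived neighbour of Dlk1, rested on an estimated 2 to 3 reads per library.

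The domain under control of the non-coding Kcnq1ot1 on chromosome 7 holds maternally expressed growth restraints. Cdkn1c, an inhibitor of cyclin-dependent kinases (143458339 to 143461050), had 67.9 and 57.4 TPM with CBR-5884, against 84.9 and 63.8 TPM with DMSO. DMSO library 2 stood highest, and DMSO library 4 lay between the CBR-5884 libraries (log2 fold change −0.23, interval −0.62 to 0.15). Dropping DMSO library 4 gave −0.44 and dropping DMSO library 2 gave −0.03. Of its exonic bases 30.7% are covered on the other strand by Gm44732, a gene not analysed here. Ascl2, a transcription factor of trophoblast and intestinal stem cells (142966829 to 142969264), had 15.2 and 13 TPM with CBR-5884, against 14.8 and 14.5 TPM with DMSO. Its groups overlapped, with a log2 fold change of −0.05, or 0.05 without CBR-5884 library 4. Phlda2, which limits placental growth, averaged 4.33 ± 0.28 TPM with CBR-5884 and 4.67 ± 2.56 TPM with DMSO (SD, n = 2 each), on an estimated 18 to 43 reads per library. Slc22a18, a transporter of the same domain, was under the filter, with group means of 0.25 TPM with CBR-5884 and 0.60 TPM with DMSO.

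Chromosome 7 also holds the Peg3 domain near its start. Peg3, a large paternally expressed zinc finger protein, had 19.2 and 19.1 TPM with CBR-5884, against 23.1 and 14.5 TPM with DMSO. The DMSO libraries thus enclosed both CBR-5884 libraries. The log2 fold change of Peg3 was 0.06 with all libraries, −0.25 when DMSO library 4 was left out and 0.38 when DMSO library 2 was. Usp29, of the ubiquitin protease family, which shares the promoter region shown above, averaged 4.08 ± 0.45 TPM with CBR-5884 and 4.75 ± 0.73 TPM with DMSO (SD, n = 2 each). The level of Peg3 was 4.37 and 5.09 times that of Usp29 with CBR-5884, against 5.45 and 2.74 times with DMSO, so the ratio differed more between the DMSO libraries than between conditions. Zim1, the maternally expressed zinc finger gene next to Peg3 (6671269 to 6696450), had 1.78 and 1.73 TPM with CBR-5884, against 2.98 and 2.44 TPM with DMSO. It was lower in both CBR-5884 libraries than in either DMSO library, by −0.42 on the log2 scale (SE 0.26, limma adjusted p = 0.998), and this ran from −0.53 to −0.32 when 1 library was left out.

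The paternally expressed genes of the Snrpn and Ndn domain, also on chromosome 7, are known for their loss in the human Prader-Willi syndrome. Snrpn, a protein of the spliceosome (59982495 to 60140219), had 12.5 and 12.7 TPM with CBR-5884, against 11.3 and 7.18 TPM with DMSO. The CBR-5884 libraries were the higher ones (log2 fold change 0.44, SE 0.23, limma adjusted p = 0.998), by 0.73 when DMSO library 2 was dropped and by 0.15 when DMSO library 4 was. Its reads cannot be cleanly assigned, since 34.54% of its 31-base words occur in other genes of the table, most of them in Gm38393. Snurf, which is made from the same transcription unit, had 27.1 and 24.3 TPM with CBR-5884, against 17.7 and 30.6 TPM with DMSO. Summed over Snrpn and Gm38393 the levels were 16 and 15.9 TPM with CBR-5884, against 15 and 10.2 TPM with DMSO, and these groups did not overlap. Summed over Snrpn, Snurf and Gm38393 the levels were 43.1 and 40.3 TPM with CBR-5884, against 32.6 and 40.8 TPM with DMSO, and with Snurf added the groups overlapped. Ndn, a MAGE family protein, had 24.4 and 23.8 TPM with CBR-5884, against 25.2 and 21.7 TPM with DMSO. Its groups overlapped (log2 fold change 0.04, −0.07 without DMSO library 4). Magel2, a related gene next to Ndn, was under the filter, with group means of 0.36 TPM with CBR-5884 and 0.55 TPM with DMSO.

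The Peg10 and Mest domains lie on chromosome 6. Peg10, derived from a retrotransposon and needed for the placenta (4747306 to 4760517), had 21.2 and 20.5 TPM with CBR-5884, against 28.9 and 14.8 TPM with DMSO. The gap between the DMSO libraries exceeded any gap between the conditions. Leaving out DMSO library 4 gave a log2 fold change of −0.45, and leaving out DMSO library 2 gave 0.47, around 0.01 with all libraries. Sgce, the epsilon-sarcoglycan read in the opposite direction from the same region, averaged 3.89 ± 0.37 TPM with CBR-5884 and 3.48 ± 0.07 TPM with DMSO (SD, n = 2 each). Mest, a hydrolase-like protein of mesodermal tissue (30723547 to 30748465), had 20.7 and 25.4 TPM with CBR-5884, against 17.4 and 21.1 TPM with DMSO. Its groups overlapped slightly, with a log2 fold change of 0.25 and an interval from −0.15 to 0.64, and leaving out 1 library gave 0.11 to 0.39. Of its exonic bases 23.1% are covered on the other strand by Copg2, and whether counting used the strand is not stated in the sources used here. Nap1l5, a nucleosome assembly retrogene, averaged 3.60 ± 0.20 TPM with CBR-5884 and 4.18 ± 0.02 TPM with DMSO (SD, n = 2 each).

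Imprinted retrogenes and their host genes gave some of the highest levels. Mcts2, a retrocopy of the translation factor gene Mcts1, lies on chromosome 2 from 152687035 to 152687946. It had 43.2 and 39.6 TPM with CBR-5884, against 47.0 and 44.6 TPM with DMSO. Mcts2 was lower in both CBR-5884 libraries (log2 fold change −0.14, SE 0.10, limma adjusted p = 0.998). Its parent gene Mcts1 had 16.3 and 18.4 TPM with CBR-5884, against 12.9 and 13.3 TPM with DMSO. The sum of both genes was 59.5 and 58.1 TPM with CBR-5884, against 59.9 and 57.9 TPM with DMSO. No 31-base word of Mcts2 was found in Mcts1. Zrsr1, a splicing factor retrogene (chromosome 11, 22972005 to 22976496), had 30.5 and 32.9 TPM with CBR-5884, against 33.1 and 21.7 TPM with DMSO. Only DMSO library 4 was low, and without it the log2 fold change was −0.06 instead of 0.23. Commd1, its host gene, known for roles in copper handling and NF-kB control, had 177 and 161 TPM with CBR-5884, against 184 and 154 TPM with DMSO. Its log2 fold change was 0.00 with an interval from −0.26 to 0.27, which became −0.12 when DMSO library 4 was dropped and −0.06 when CBR-5884 library 2 was. The 2 genes overlap on opposite strands over 9.2% of the exonic bases of Zrsr1.

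Nnat, a small membrane protein first known from the newborn brain (chromosome 2, 157560078 to 157562522), had 21.0 and 20.1 TPM with CBR-5884, against 24.9 and 21.9 TPM with DMSO. All CBR-5884 values lay below the DMSO values, by −0.18 on the log2 scale (SE 0.13, limma adjusted p = 0.998). Blcap, which surrounds Nnat on the other strand, had 48.9 and 43.6 TPM with CBR-5884, against 46.5 and 40.5 TPM with DMSO. Here the groups overlapped, with a log2 fold change of 0.09 (−0.01 without DMSO library 4). The level of Blcap was 2.33 and 2.16 times that of Nnat with CBR-5884, against 1.87 and 1.85 times with DMSO. This ratio was not tested.

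Gnas, on chromosome 2, encodes the alpha subunit of the stimulatory G protein and makes several imprinted isoforms that the gene-level values merge. It had 89.3 and 79.0 TPM with CBR-5884, against 92.6 and 73.7 TPM with DMSO. The DMSO values enclosed those with CBR-5884 (log2 fold change 0.02; −0.14 if DMSO library 4 is dropped, −0.06 if CBR-5884 library 2 is). Inpp5f, a phosphoinositide phosphatase of which only a short isoform is imprinted, had 66.8 and 68.0 TPM with CBR-5884, against 71.7 and 65.9 TPM with DMSO. Its interval was among the narrow ones, from −0.24 to 0.19 around −0.03, and the value was 0.03 without DMSO library 2. Zdbf2, a paternally expressed gene known for its effect on growth in mice (chromosome 1, 63273265 to 63314576), had 19.7 and 21.1 TPM with CBR-5884, against 18.5 and 16 TPM with DMSO. Both CBR-5884 libraries were higher (log2 fold change 0.23, SE 0.14, limma adjusted p = 0.998). Impact, on chromosome 18, restrains the amino acid sensor kinase Gcn2. It had 8.93 and 14.4 TPM with CBR-5884, against 12.3 and 8.75 TPM with DMSO. The 2 groups of Impact values crossed, and its log2 fold change of 0.12 became −0.20 when CBR-5884 library 4 was dropped and −0.10 when DMSO library 4 was.

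Most imprinted genes of the main list differed in a shared direction between the 2 DMSO libraries. The second list of imprinted genes, described below, did not, with DMSO library 2 the higher one for 14 of 29 (48.3%). On the main list DMSO library 2 was above DMSO library 4 for 22 of the 26 genes tested (84.6%), against 52.9% of all genes tested. The median ratio of these 26 was 1.15, and some lay near 1, such as Nap1l5 (1.01) and Ascl2 (1.02). The ratio of library 2 to library 4 was at least 1.5 for 5 of them, Phlda2 (2.26), Peg10 (1.95), Peg3 (1.6), Snrpn (1.57) and Zrsr1 (1.53), where 7.55% of all genes tested reached it. In the CBR-5884 pair the median ratio of the 26 was 1.03, from 0.596 to 1.28. Over all genes tested the median ratio was 1.01 in either pair. For the 5 genes the ratio in the CBR-5884 pair ran from 0.91 for Phlda2 to 1.03 for Peg10. Because the 5 were picked by their ratio in the DMSO pair, their contrast between the pairs partly follows from the choice. The gap between the DMSO libraries was larger than the gap between the group means for 16 of the 26 genes, and this held for 63.7% of all genes tested.

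Sertoli cell markers differed in the same direction within the DMSO pair. Amh, the hormone of fetal Sertoli cells, had 29.6 and 26.5 TPM with CBR-5884, against 38.5 and 16.6 TPM with DMSO. The ratio of DMSO library 2 to library 4 was 2.33 for Amh and at least 1.5 for 6 of the 7 markers, with Gata4 at 0.96. For the CBR-5884 pair the ratio of the same 7 markers lay between 1.07 and 1.40. Among the germ cell markers DMSO library 2 was above library 4 for 6 of 8, with a median ratio of 1.03 and a highest of 1.34. Among the imprint regulators described below it was above for 16 of the 23 tested (69.6%), also with a median ratio of 1.03. Both medians were near the 1.01 over all genes tested, of which 52.9% were higher in DMSO library 2. Of the 6 peritubular and stromal markers that passed the filter, 5 were higher in DMSO library 2, with ratios from 1.34 for Acta2 to 2.07 for Col1a2, and Col1a1, the most abundant, had 0.878. Macrophage markers summed to 12.8 and 29.4 TPM with CBR-5884, against 18.2 and 23.0 TPM with DMSO. Here library 4 was the higher one in both pairs, and the wider gap lay within the CBR-5884 pair. The part of somatic RNA in the levels of imprinted genes was not tested.

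**Figure D3:**
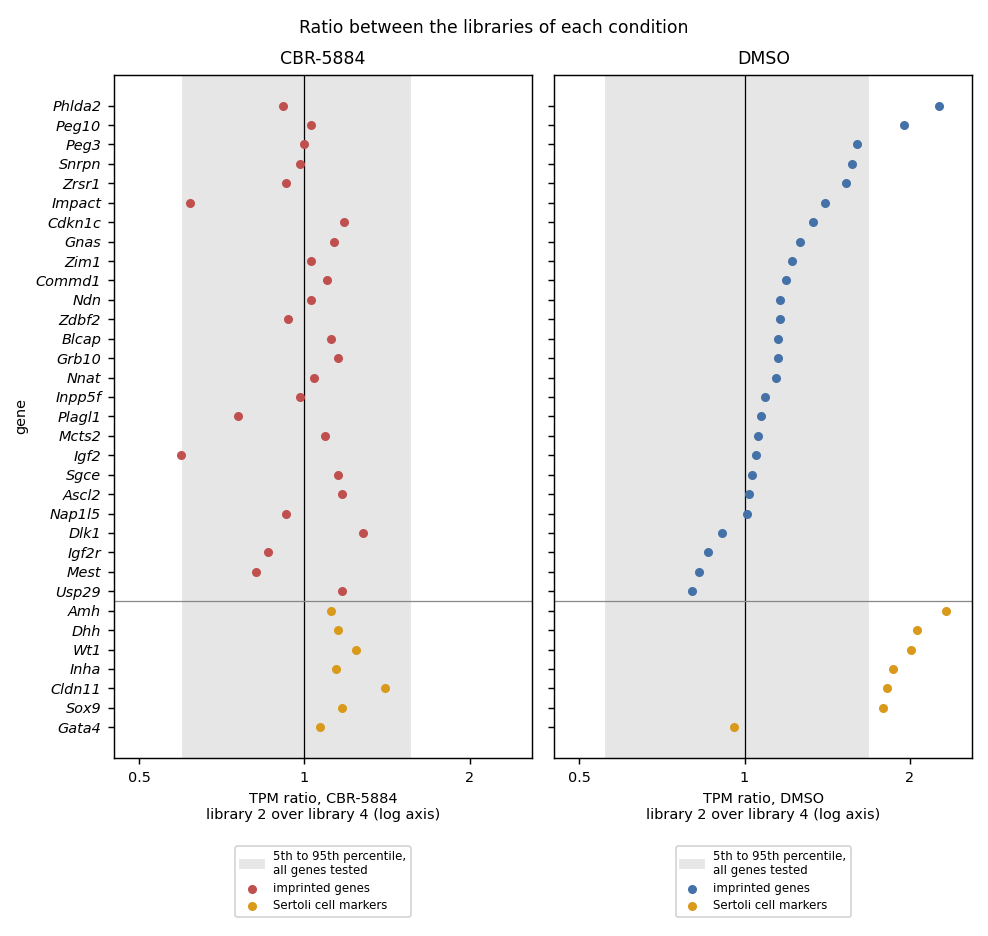
TPM of library 2 divided by TPM of library 4 (log axis) within the CBR-5884 pair (left) and the DMSO pair (right), for the 26 imprinted genes tested (upper rows) and 7 Sertoli cell markers (lower rows, orange). Grey bands hold the 5th to 95th percentile of all genes tested. In the DMSO pair 22 imprinted genes lie above 1, Phlda2 and Peg10 lie beyond the band, and 6 Sertoli markers lie between 1.79 and 2.33.

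Genes that write, protect or erase imprint methylation were mostly well expressed. Of the 26 regulators on the list, 23 passed the filter, with a median of 61.3 TPM and a median log2 fold change of −0.01. With limma 0 passed the adjusted threshold, and at an unadjusted p under 0.05 there was 1 lower and 0 higher. This share, 4.35% of the 23, was near the 3.66% of all genes tested. The gene was Dnmt1, which copies methylation after replication. Dnmt1 had 323 and 347 TPM with CBR-5884, against 384 and 378 TPM with DMSO, so both CBR-5884 libraries lay below both DMSO libraries (log2 fold change −0.19, SE 0.07, limma unadjusted p = 0.0454, adjusted p = 0.998). Its unadjusted limma p was 0.0835 with totals rescaled to 1000000, and from 0.0415 to 0.0489 in the other alternatives with all libraries. When 1 library was left out, the log2 fold change of Dnmt1 ran from −0.24 to −0.14. Uhrf1, the partner that brings Dnmt1 to half-methylated DNA, had 227 and 252 TPM with CBR-5884, against 252 and 280 TPM with DMSO. The highest Uhrf1 value with CBR-5884 and the lowest with DMSO were nearly equal (log2 fold change −0.15, interval −0.38 to 0.07, or −0.23 to −0.08 when 1 library was left out).

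The enzymes that set new imprints differed in level. Dnmt3a, the main one in the male germ line, had 123 and 120 TPM with CBR-5884, against 120 and 116 TPM with DMSO. Its interval was narrow, from −0.14 to 0.23. Dnmt3b averaged 59.5 ± 0.64 TPM with CBR-5884 and 67.6 ± 9.90 TPM with DMSO (SD, n = 2 each). Dnmt3l, the cofactor that prospermatogonia need for imprint setting, was low, at 1.6 ± 0.37 TPM with CBR-5884 and 1.34 ± 0.49 TPM with DMSO. Dnmt3c, the rodent enzyme for young transposons, was under the filter, with at most 0.22 TPM in any library. Piwil4, the nuclear PIWI protein of fetal male germ cells, had 21.9 and 18.7 TPM with CBR-5884, against 18.9 and 14.5 TPM with DMSO (log2 fold change 0.27, interval −0.15 to 0.70), which ran from 0.09 to 0.46 when 1 library was left out.

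Factors that guard imprints split by level too. Trim28, the shared corepressor, had 465 and 442 TPM with CBR-5884, against 432 and 446 TPM with DMSO. Zfp57 had 5.96 and 7.35 TPM with CBR-5884, against 3.40 and 6.30 TPM with DMSO, a wide scatter with a log2 fold change of 0.43 (interval −0.30 to 1.15). Dropping DMSO library 2 took Zfp57 to 0.06, and dropping DMSO library 4 took it to 0.79. Zfp445, its partner in imprint protection, averaged 40.0 ± 0.45 TPM with CBR-5884 and 38.4 ± 3.55 TPM with DMSO (SD, n = 2 each). Dppa3, which shields marks in the early embryo, and Tet1, an oxidase of methylated cytosine, were under the filter, between 0.48 and 1.41 TPM. Ctcf, the insulator protein that reads the Igf2 domain, averaged 70.6 ± 9.48 TPM with CBR-5884 and 73.2 ± 1.02 TPM with DMSO (SD, n = 2 each). Ctcfl, its germline paralog, averaged 11.0 ± 0.76 TPM with CBR-5884 and 10.7 ± 0.24 TPM with DMSO.

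**Figure D4:**
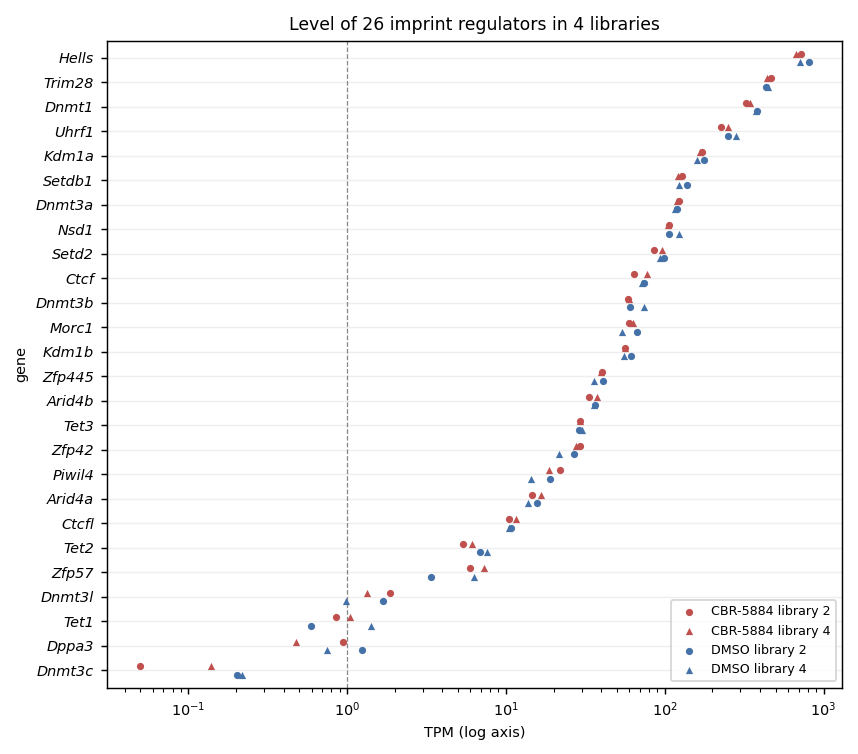
Level of the 26 imprint regulators (rows, ordered by the mean) in TPM on a log axis, with CBR-5884 libraries in red above DMSO libraries in blue, circles for library 2, triangles for library 4 and a dashed line at the filter of 1 TPM. Dnmt1 has both red points below both blue points, while Dnmt3c, Dppa3 and Tet1 sit around or under the line.

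A second list held 50 further genes described as imprinted in some mouse tissue. Of these 47 had values and 29 passed the filter, with a median of 12.9 TPM and a median log2 fold change of 0.00. With limma 0 of 29 passed the adjusted threshold and 0 had an unadjusted p under 0.05, and 4 of 29 (13.8%) had groups that did not overlap, against 31.3% of all genes tested. The highest was Nap1l4, a histone chaperone gene at the end of the Kcnq1ot1 domain, with 338 and 333 TPM with CBR-5884, against 340 and 325 TPM with DMSO. Dhcr7, an enzyme of cholesterol synthesis, had 157 and 141 TPM with CBR-5884, against 152 and 130 TPM with DMSO. Ube3a, a ubiquitin ligase imprinted in neurons, had 97.5 and 96.6 TPM with CBR-5884, against 109 and 97.4 TPM with DMSO. Copg2, the antisense neighbour of Mest, had 90.1 and 100 TPM with CBR-5884, against 102 and 95.2 TPM with DMSO. The groups overlapped for all 4 of these genes. In this list DMSO library 2 was above library 4 for 14 of 29 genes (48.3%).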

How the data were processed

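The authors used kallisto, fastp and the build mm10, per the submitters' processing notes, which give no versions here. Per the labels' protocols, 100 ng of total RNA entered each TruSeq library. Per the file headers, the authors deposited TPM and scaled reads per base, both gene-level signal values repeated for each transcript, and 1 line per gene and library was kept. Summed TPM was 966761 to 1002976 per library. The deposited values are not counts, so no count model was used, and depth was estimated from the value of 1 read among low scaled reads. Read numbers of genes are such estimates and are rough for genes with several isoforms.

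Library names give the condition, but their numbers (2 and 4) differ from the labels' replicate numbers (1 and 2), so a library's labelled replicate is not known. The comparison used limma 3.58.1 in R 4.3.3 with a trended variance, two-sided, on log2(TPM + 1), without covariates, and covered 14920 genes whose mean TPM reached 1. Fold changes on this scale understate those of low genes. The fit was also run on simulated data with 4-fold changes in 200 genes of at least 10 TPM. It recovered 100% of them, with a mean of 10.8 false calls per simulated set. The noise was drawn independently for each gene and library, with a spread set by the gene's mean level alone. Differences between libraries that many genes share were not simulated, so the recovery in the real libraries is not known. Smaller changes were not simulated. Positions are from GENCODE M21 on GRCm38 (mm10), and shared 31-base words from its transcripts. Alternatives changed the pseudocount, filter, measure, totals, block and libraries. Every gene on the list is accounted for. Genes with a mean of at least 10 TPM, an unadjusted p under 0.05, or groups that do not overlap and a log2 fold change beyond 0.3 either way are given by library. Also named are a fixed panel of regulators, by library or by group mean, the 4 highest other imprinted genes and the top marker of each cell type. The members and lists were chosen with earlier results of these data known.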

Additional observations from a re-analysis of the deposited data

How the results depend on the processing

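With all libraries, 147 of 150 refitted log2 fold changes of imprinted genes and 89 of 89 of the other named genes kept their sign, and 0 crossed the adjusted threshold (limma). The exceptions lay at 0: Phlda2 was 0.00 with a pseudocount of 0.1 and 0.01 with totals rescaled to 1000000, and Commd1 was −0.00 with scaled reads. Scaled reads called 1 gene of all tested, Hspa1b. They put 1 of 26 imprinted genes, Zdbf2, at an unadjusted limma p under 0.05, where 3.45% of all genes tested passed. Without a filter 1079 of 26138 genes (4.13%), against 546 of 14920 (3.66%), had an unadjusted p under 0.05. Libraries of the same number deviated together (correlation 0.2 across genes), but the numbers are not tied to a shared source. With the number as a replicate block, 1 of 26 imprinted genes, Cdkn1c (−0.23), had an unadjusted limma p under 0.05. In that fit 5.34% of all 14920 genes tested did, and 0 passed the adjusted threshold.

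Leaving out 1 library at a time called 0 genes in each of the 4 fits. Genes at an unadjusted p under 0.05 numbered 393 to 1034, and imprinted genes among them 0 to 3 (Zrsr1, Peg10 and Snrpn without DMSO library 2). Both highest counts came from the fit without DMSO library 2. Each of these fits leaves 1 library in a condition, so the counts do not single out genes. Peg10 was 0.47 on the log2 scale without DMSO library 2 and −0.45 without DMSO library 4. Cdkn1c was −0.44 without DMSO library 4, and Igf2 was 0.50 without CBR-5884 library 2. The median log2 fold change ran from −0.07 to 0.14 for imprinted genes and from −0.28 to −0.03 for the maternal set. In 21 of 104 refits 14 imprinted genes changed sign: Peg10 (−0.45 to 0.47), Phlda2 (−0.49 to 0.46), Peg3 (−0.25 to 0.38), Igf2 (−0.22 to 0.50), Impact (−0.20 to 0.44), Zrsr1 (−0.06 to 0.53), Dlk1 (−0.13 to 0.21), Gnas (−0.14 to 0.19), Commd1 (−0.12 to 0.13), Igf2r (−0.05 to 0.16), Ascl2 (−0.16 to 0.05), Ndn (−0.07 to 0.14), Blcap (−0.01 to 0.18) and Inpp5f (−0.09 to 0.03). So did Ctcf (−0.19 to 0.08), Ctcfl (−0.02 to 0.11), Dnmt3l (−0.05 to 0.38), Zfp445 (−0.03 to 0.15), Nap1l4 (−0.02 to 0.05), Dhcr7 (−0.03 to 0.20) and Copg2 (−0.13 to 0.03). The cause was not tested. With 2 libraries per condition, differences inside the printed intervals cannot be seen.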

Other observations

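Genes that border or house imprinted genes without being on the main list were also measured. Zfp264, a zinc finger gene of the Peg3 domain, had 12.4 and 14 TPM with CBR-5884, against 15.9 and 11.2 TPM with DMSO, with the DMSO libraries outside both CBR-5884 libraries as for Peg3. H13, the signal peptide peptidase gene around Mcts2, had 27.4 and 33.2 TPM with CBR-5884, against 29.9 and 30.3 TPM with DMSO. Herc3, a ubiquitin ligase gene around Nap1l5, had 58.5 and 48.9 TPM with CBR-5884, against 59.8 and 58.4 TPM with DMSO. These genes were picked for their position after the values of their neighbours were seen.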
